A study of Mus musculus with 36 samples.

Results

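The miR-148/152 family was followed through 36 small RNA libraries of the mouse ventral and lateral prostate lobes. Its members here were the 4 rows mmu-miR-148a-3p, mmu-miR-148a-5p, mmu-miR-148b-3p and mmu-miR-152-3p, of the 1963 miRNAs listed. They were chosen by name, and the family was picked because miR-148a-3p held the first rank in many libraries, so its rank and overall level are given as a description with no test. All 4 members passed the filter on low values, a mean of at least 10 RPM (reads-per-million, the reads of a miRNA scaled to one total for every library) over the 36 libraries, among the 298 miRNAs that passed it.

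The libraries came from male mice of the C56NL/6N strain in 12 groups of 3, at 10 or 30 weeks of age. WT mice carried ELAC2+/+. KO mice were ELAC2-/-, with exon 8 removed only in cells where the probasin promoter drives Pb-Cre. A537T mice carried the Ala537Thr variant of ELAC2, the RNase Z that trims the 3′ ends of tRNA precursors, in the whole body, on both copies of the gene. The WT-TRAMP, KO-TRAMP and A537T-TRAMP groups were the same genotypes with 1 copy of TRAMP, a transgene in which the probasin promoter drives the T antigens of SV40 in the epithelium of the gland. Elac2 mRNA is not measured in small RNA libraries, so the genotype labels could not be checked here. Each library was one column of normalised counts that names a library number but no replicate, so libraries are called by that number below. The study's methods give 3 mice for each group, so the spread between libraries is taken as that between mice.

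MicroRNAs guide Argonaute proteins to messenger RNAs, mainly through the seed, bases 2 to 8 of the mature strand. A hairpin precursor gives a 5p and a 3p arm, one of which is usually kept and the other mostly degraded. The miR-148/152 family is known for repressing the DNA methyltransferase DNMT1, and miR-148a is known as an androgen-responsive miRNA in prostate cells and as an abundant miRNA of several epithelia and of liver.

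The 3 members with the 3p arm are shown because they share one seed, in capitals, and were the only 3 mature miRNAs with it among the 1679 of the RefSeq annotation of GRCm38.p6. All 4 members were matched there by name. The 2 arms named 5p from Mir148a and Mir148b share another seed, while that of miR-152-5p was its own.

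miR-148a-3p: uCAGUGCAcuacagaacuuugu
miR-148b-3p: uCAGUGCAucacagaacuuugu
miR-152-3p: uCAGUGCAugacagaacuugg
miR-148a-5p: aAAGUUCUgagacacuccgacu
miR-148b-5p: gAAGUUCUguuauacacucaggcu
miR-152-5p: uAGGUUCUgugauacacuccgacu

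Counted from the 5′ end of the first sequence named, miR-148a-3p and miR-148b-3p differed by C9U and U10C, miR-148a-3p and miR-152-3p by C9U, U10G and U20G, and miR-148b-3p and miR-152-3p by C10G and U20G. None of these positions lies in the seed. Mir148a is at chr6:51269812-51269910 on the minus strand and overlapped no annotated gene, the nearest protein-coding gene being Nfe2l3 at 162760 bp. Mir148b is at chr15:103285125-103285221 on the plus strand, in an intron of Copz1. Mir152 is at chr11:96850393-96850465 on the plus strand, in an intron of Copz2 (GRCm38 coordinates). The precursor of miR-148a, with its 5p and then its 3p arm in capitals, shows how both members come from 1 hairpin.

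Mir148a: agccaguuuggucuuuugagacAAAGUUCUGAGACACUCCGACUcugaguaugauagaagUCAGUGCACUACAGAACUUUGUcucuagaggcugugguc

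The 4 members differed widely in level. miR-148a-3p held 18.7% of all miRNA reads on average, from 7.40% in A537T library 36 at 10 weeks to 31.4% in KO-TRAMP library 7 at 10 weeks, a 4.24-fold range. miR-152-3p measured 7248 ± 1848 RPM (SD, n = 36), miR-148b-3p 833 ± 195 RPM and miR-148a-5p 599 ± 161 RPM. Their ranks among all miRNAs ran from 1 to 3 for miR-148a-3p, from 18 to 38 for miR-152-3p, from 58 to 84 for miR-148b-3p and from 60 to 117 for miR-148a-5p. The libraries held 655455 reads (A537T library 35 at 10 weeks) and from 4544257 to 21870210 reads (the other 35). The 9 TRAMP libraries of 10 weeks held 4544257 to 13014486 reads, and 8 of the 9 without TRAMP at that age 12422946 to 18574473 reads. Even in library 35, miR-148a-5p rested on 322 reads, with a 95% Wilson interval of 440 to 548 RPM. Such intervals cover counting error only.

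miR-148a-3p was the first miRNA in 18 of the 36 libraries, 16 of them with TRAMP and 2 without. It ranked first in all 9 TRAMP libraries of 10 weeks and in 7 of the 9 of 30 weeks. miR-143-3p, a miRNA of smooth muscle and stroma, was first in 16 libraries, 14 of them without TRAMP, and miR-1a-3p, a skeletal muscle miRNA, in 2 of the 3 WT libraries of 10 weeks. By mean share the 5 leading miRNAs were miR-148a-3p, miR-143-3p (18.3%), miR-21a-5p (8.76%), miR-26a-5p (4.10%) and let-7f-5p (3.68%).

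At 10 weeks without TRAMP, miR-148a-3p measured 81984, 137295 and 141700 RPM in WT, 122426, 112420 and 113668 RPM in KO, and 152335, 115762 and 73986 RPM in A537T. With TRAMP at that age it measured 186376, 240703 and 275828 RPM in WT-TRAMP, 313900, 225711 and 242912 RPM in KO-TRAMP, and 302061, 247060 and 248512 RPM in A537T-TRAMP. Each of the 9 TRAMP libraries lay above each of the 9 without TRAMP. How many of all miRNAs separated in this way was not counted, so such separations, here and below, are descriptions. Without TRAMP at 30 weeks it measured 223123, 139278 and 167275 RPM in WT, 147457, 222367 and 162205 RPM in KO, and 131646, 147458 and 169109 RPM in A537T. With TRAMP at 30 weeks it measured 229424, 255698 and 248965 RPM in WT-TRAMP, 260669, 103939 and 152485 RPM in KO-TRAMP (libraries 16, 17 and 18), and 199656, 194400 and 252369 RPM in A537T-TRAMP. Here only 5 of the 9 TRAMP libraries exceeded all of those without, and KO-TRAMP held both the lowest and the highest of the 9. In the order of the 12 group means, from 265878 RPM in A537T-TRAMP at 10 weeks to 114028 RPM in A537T at 10 weeks, every group overlapped with its neighbours.

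**Figure D1:**
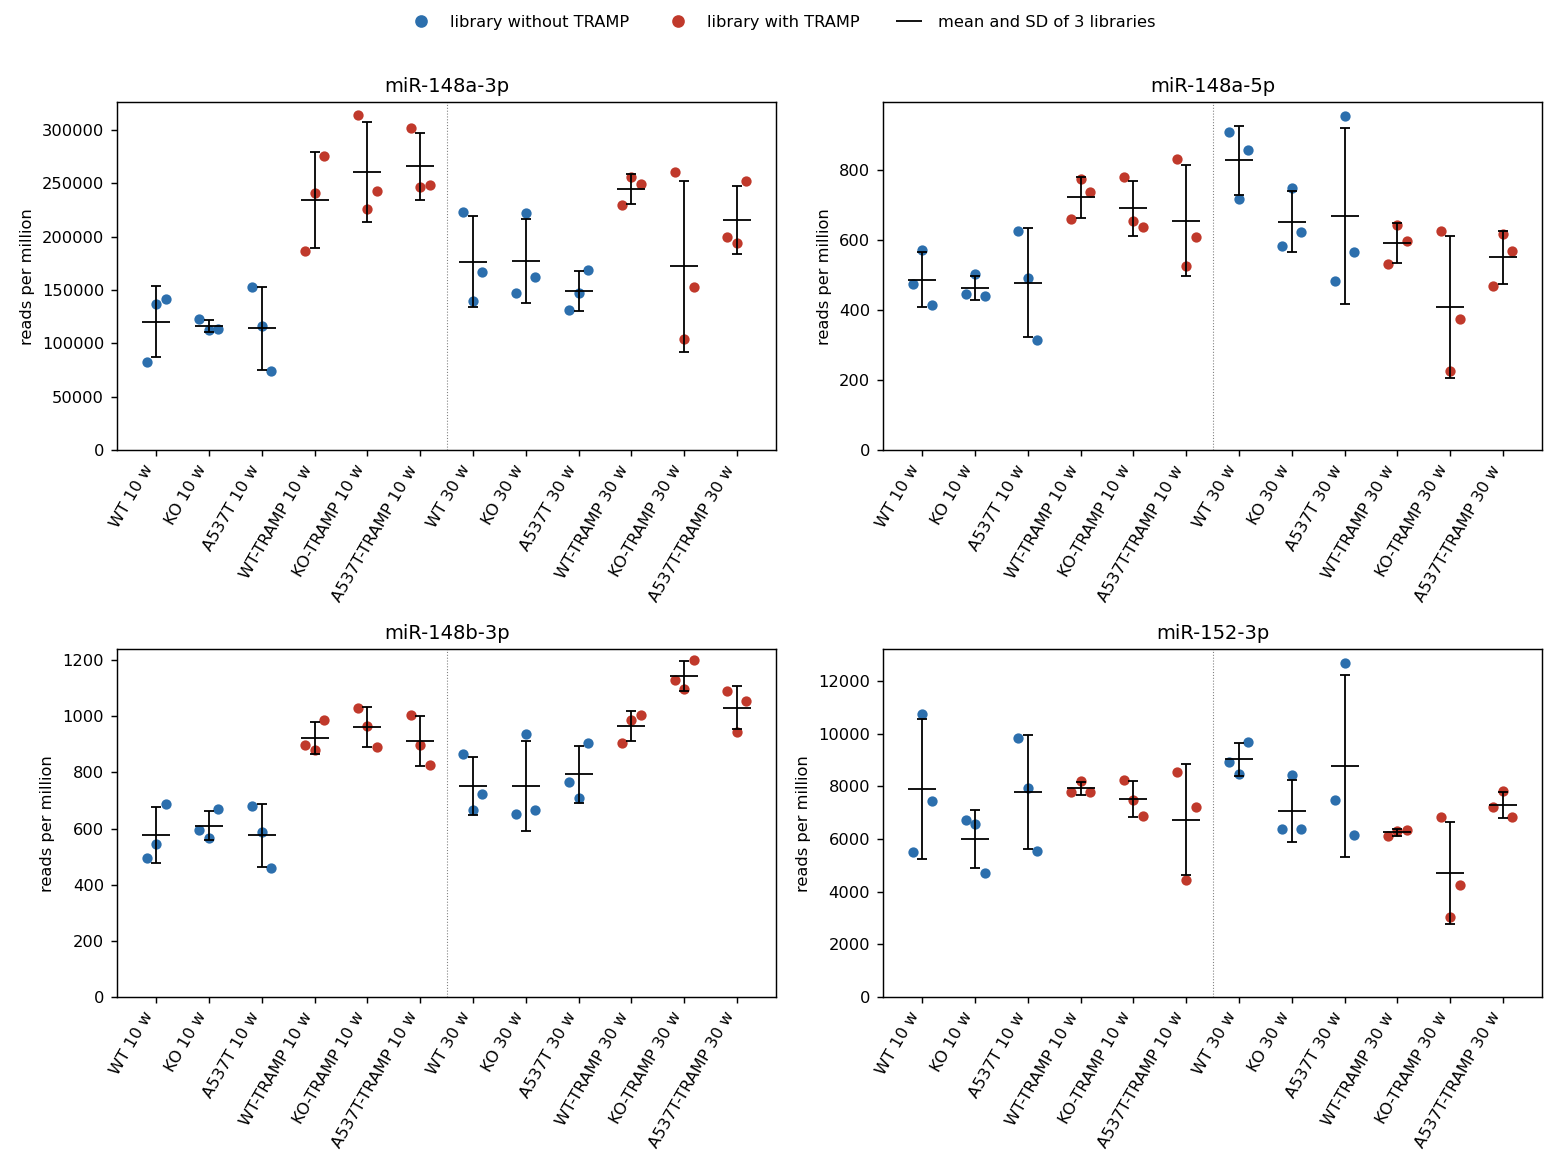
RPM (y axis) of the 4 members in each of the 36 libraries (points) with the mean and SD of the 3 libraries of a group (lines), for 12 groups on the x axis, 10 weeks left and 30 weeks right of the dotted line. For miR-148a-3p and miR-148b-3p all 9 TRAMP libraries of 10 weeks lie above the 9 without TRAMP, while miR-152-3p overlaps.

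The first comparison asked how the level of each member differed between TRAMP and non-TRAMP prostates. The TRAMP libraries were numbered 1 to 18 and those without TRAMP 19 to 36. TRAMP therefore cannot be told apart from anything in the handling that followed this order. At 10 weeks miR-148a-3p was 2.20-fold higher with TRAMP as the mean of the 3 lines, a log2 fold change of 1.14 ± 0.16 (SE, 9 against 9 libraries, limma adjusted p = 5.07e-07). miR-148b-3p rose too, by 0.67 ± 0.09 (adjusted p = 3.79e-07), again with all 9 TRAMP libraries above the 9 without. The other arm, miR-148a-5p, rose by 0.55 ± 0.16 (adjusted p = 0.00361), and 7 of its 9 TRAMP libraries exceeded all of those without. For miR-152-3p the difference was 0.06 ± 0.16 (95% interval -0.27 to 0.39, adjusted p = 0.743). These 3 calls of 4 stood in a comparison in which 71.1% of the 298 miRNAs tested passed the threshold, an adjusted p under 0.05, and in which the median of all miRNAs was -0.23. The share of all miRNAs whose 9 TRAMP libraries lay above the 9 without was not counted. Fold changes here and below are on the log2(RPM + 1) scale.

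Taken line by line at 10 weeks, miR-148a-3p was higher with TRAMP by 0.99 ± 0.27 in WT (adjusted p = 0.00421, limma), 1.15 ± 0.27 in KO (0.00187) and 1.28 ± 0.27 in A537T (0.000673). miR-148b-3p was higher by 0.69 ± 0.16 (0.000769), 0.66 ± 0.16 (0.00191) and 0.68 ± 0.16 (0.00149). The WT calls depended on the processing. That of miR-148a-3p was lost in DESeq2 (0.80, adjusted p = 0.0558), with TMM (0.0567) or median-of-ratios scaling (0.0508), with totals free of skeletal muscle miRNAs (0.67, 0.0659), and relative to miR-143-3p (0.199) or to the summed epithelial miRNAs described below (0.28, 0.295). That of miR-148b-3p was lost in DESeq2 (0.52, adjusted p = 0.0846), with TMM (0.0617) or median-of-ratios scaling (0.0569), with totals free of skeletal muscle miRNAs (0.37, 0.102) and relative to miR-143-3p (0.241). Relative to the epithelial miRNAs, miR-148b-3p was called in no line, at -0.017 in WT, 0.09 in KO and 0.24 in A537T. In A537T both miRNAs lost their call relative to miR-143-3p.

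miR-148a-5p and miR-152-3p passed in none of the 3 lines at 10 weeks, with 0.58, 0.57 and 0.48 for miR-148a-5p and 0.06, 0.34 and -0.22 for miR-152-3p. Of all miRNAs tested, 40.9% passed in WT, 47.7% in KO and 39.3% in A537T.

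At 30 weeks the members parted. miR-148b-3p was again higher with TRAMP, by 0.46 ± 0.09 (adjusted p = 0.000122, limma), and 8 of 9 TRAMP libraries exceeded all 9 without. miR-148a-5p was lower by 0.50 ± 0.16 (log2 fold change -0.50, adjusted p = 0.0118) and miR-152-3p lower by 0.46 ± 0.16 (log2 fold change -0.46, adjusted p = 0.0204). miR-148a-3p differed by 0.30 ± 0.16 (95% interval -0.02 to 0.62, adjusted p = 0.12) and was not called. The background was 46.3% of miRNAs called, with a median of 0.02 over all. Relative to miR-143-3p, the 2 lower members turned to 0.02 (miR-148a-5p) and 0.06 (miR-152-3p), neither called, and with totals free of miR-148a-3p their calls were lost as well (-0.42, adjusted p = 0.0584, and -0.38, 0.0826). The call of miR-148b-3p was lost with median-of-ratios scaling (0.33, adjusted p = 0.0725). Without KO-TRAMP library 17 the miR-148a-3p difference was 0.40 (adjusted p = 0.0269), and the miR-152-3p call was lost without that library (-0.37, adjusted p = 0.0579) or without A537T library 26 (-0.36, adjusted p = 0.0594).

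miR-148b-3p at 10 weeks without TRAMP measured 496, 545 and 689 RPM in WT, 596, 567 and 669 RPM in KO, and 681, 589 and 458 RPM in A537T. Its 9 TRAMP values at that age ran from 828 to 1032 RPM with a median of 900 RPM. At 30 weeks the values were 652 to 936 RPM (median 722) without TRAMP and 904 to 1201 RPM (median 1054) with it. The highest group mean was 1143 ± 53.3 RPM in KO-TRAMP at 30 weeks. The only gap between neighbours in the order of the 12 groups lay below it. The lowest library of KO-TRAMP at 30 weeks was at 1097 RPM, and the highest of A537T-TRAMP at 30 weeks, ranked next, at 1092 RPM. miR-148b-3p thus stayed high in KO-TRAMP libraries 17 and 18, at 1097 and 1201 RPM, in which miR-148a-3p was at 103939 and 152485 RPM. There were on average 223 reads of miR-148a-3p for each of miR-148b-3p, with a range of 94.7 to 304 over the libraries. The 2 sequences differ at 2 positions, and how many reads of the abundant member were counted under the other was not tested.

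In single lines at 30 weeks, miR-148b-3p was called in KO (0.62 ± 0.16, adjusted p = 0.00258, limma) and not in WT (0.37, 0.0684) or A537T (0.38, 0.11). The KO call was lost in DESeq2 (0.38, adjusted p = 0.213), in edgeR (0.46, 0.0718), with TMM (0.36, 0.246) or median-of-ratios scaling (0.32, 0.346), in a fit of these libraries alone (0.0608) and relative to miR-143-3p (0.35). miR-148a-5p was called in KO as well (-0.79 ± 0.27, adjusted p = 0.0234), and this call was lost without library 17 (-0.42, adjusted p = 0.252), 18 or 23, in a fit of these libraries alone (0.17), with no filter (0.0508) and relative to miR-143-3p (0.786). miR-148a-3p was called in no line, at 0.50 in WT, -0.12 in KO and 0.53 in A537T. The shares of all miRNAs called were 33.6% in WT, 36.2% in KO and 15.1% in A537T.

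miR-148a-5p, which lies opposite miR-148a-3p in the precursor, measured 315 to 625 RPM (median 474) in the 9 libraries of 10 weeks without TRAMP and 525 to 832 RPM (median 658) in the 9 with it. At 30 weeks the order of the groups was turned, with 482 to 955 RPM (median 716) without TRAMP and 224.5 to 643 RPM (median 567) with it. Its lowest library was KO-TRAMP library 17 and its highest A537T library 26.

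miR-152-3p ranged from 4715 to 10762 RPM (median 6724) at 10 weeks without TRAMP and from 4448 to 8553 RPM (median 7773) with it. At 30 weeks it ranged from 6153 to 12708 RPM (median 8415) without TRAMP and from 3039 to 7810 RPM (median 6340) with it, and 3 of the 9 TRAMP libraries lay below all of those without. The other arm of its precursor, miR-152-5p, fell by 1.02 ± 0.20 on the log2 scale with TRAMP at 30 weeks (adjusted p = 0.000113, limma), from 149 to 427 RPM without TRAMP and 57.9 to 165 RPM with it. Relative to miR-143-3p this log2 fold change of miR-152-5p was -0.50 and not called (limma adjusted p = 0.453). At 10 weeks its difference was -0.22 ± 0.20 (adjusted p = 0.327). miR-148b-5p was near the floor of the filter, at 10.8 to 25.9 RPM, and was higher by 0.39 ± 0.11 with TRAMP at 30 weeks (adjusted p = 0.00589).

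The age comparison set 30 against 10 weeks. Without TRAMP, 3 members were higher at 30 weeks as the mean of the 3 lines, miR-148a-3p by 0.53 ± 0.16 (adjusted p = 0.00788, limma), miR-148a-5p by 0.58 ± 0.16 (0.00469) and miR-148b-3p by 0.38 ± 0.09 (0.0014). For miR-152-3p the difference was 0.21 ± 0.16 (0.312). Of all miRNAs 37.2% were called. Relative to the epithelial miRNAs none of the 3 was called (-0.024 for miR-148a-3p, 0.021 for miR-148a-5p and -0.18 for miR-148b-3p), nor was any relative to miR-143-3p. With totals free of skeletal muscle miRNAs the calls of miR-148a-3p (0.38, adjusted p = 0.0792) and miR-148b-3p (0.22, 0.0905) were lost. In the same comparison 5 of 7 epithelial miRNAs were higher, all 5 skeletal muscle miRNAs tested and both red cell miRNAs tested were lower, and 1 of 5 white blood cell miRNAs was higher.

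With TRAMP only miR-148a-5p was called, lower by 0.47 ± 0.16 at 30 weeks (log2 fold change -0.47, adjusted p = 0.0288), against a background of 29.2%. Its call was lost relative to miR-143-3p and with no filter (adjusted p = 0.0608). All 5 white blood cell and 3 of 5 smooth muscle and stroma miRNAs were higher at 30 weeks there, while 1 of 7 epithelial miRNAs was higher and 1 lower. Without library 17 its difference was -0.34 (adjusted p = 0.0804), and the call was lost without library 2, 4, 7, 10 or 13 too. The other 3 members differed with age in TRAMP by -0.30 ± 0.16 (miR-148a-3p, adjusted p = 0.132), 0.16 ± 0.09 (miR-148b-3p, 0.156) and -0.31 ± 0.16 (miR-152-3p, 0.133). Without KO-TRAMP library 16, miR-148a-3p (-0.42, adjusted p = 0.0206) and miR-152-3p (-0.41, 0.0324) were called. The TRAMP and age comparisons share their libraries and are not independent of each other.

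Whether the TRAMP difference changed between the ages was tested as an interaction, the TRAMP effect at 30 weeks minus that at 10 weeks. It was -0.84 ± 0.22 for miR-148a-3p (adjusted p = 0.00455, limma) and -1.04 ± 0.22 for miR-148a-5p (adjusted p = 0.000858), so both arms of Mir148a showed a smaller or opposite TRAMP difference at 30 weeks. For miR-148b-3p the interaction was -0.22 ± 0.13 (0.182) and for miR-152-3p -0.52 ± 0.23 (0.0673), which passed the threshold without library 5, 16, 27, 29 or 34 (-0.62, adjusted p = 0.0178 without library 16). The share of all miRNAs called in the interaction was 41.6%.

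**Figure D2:**
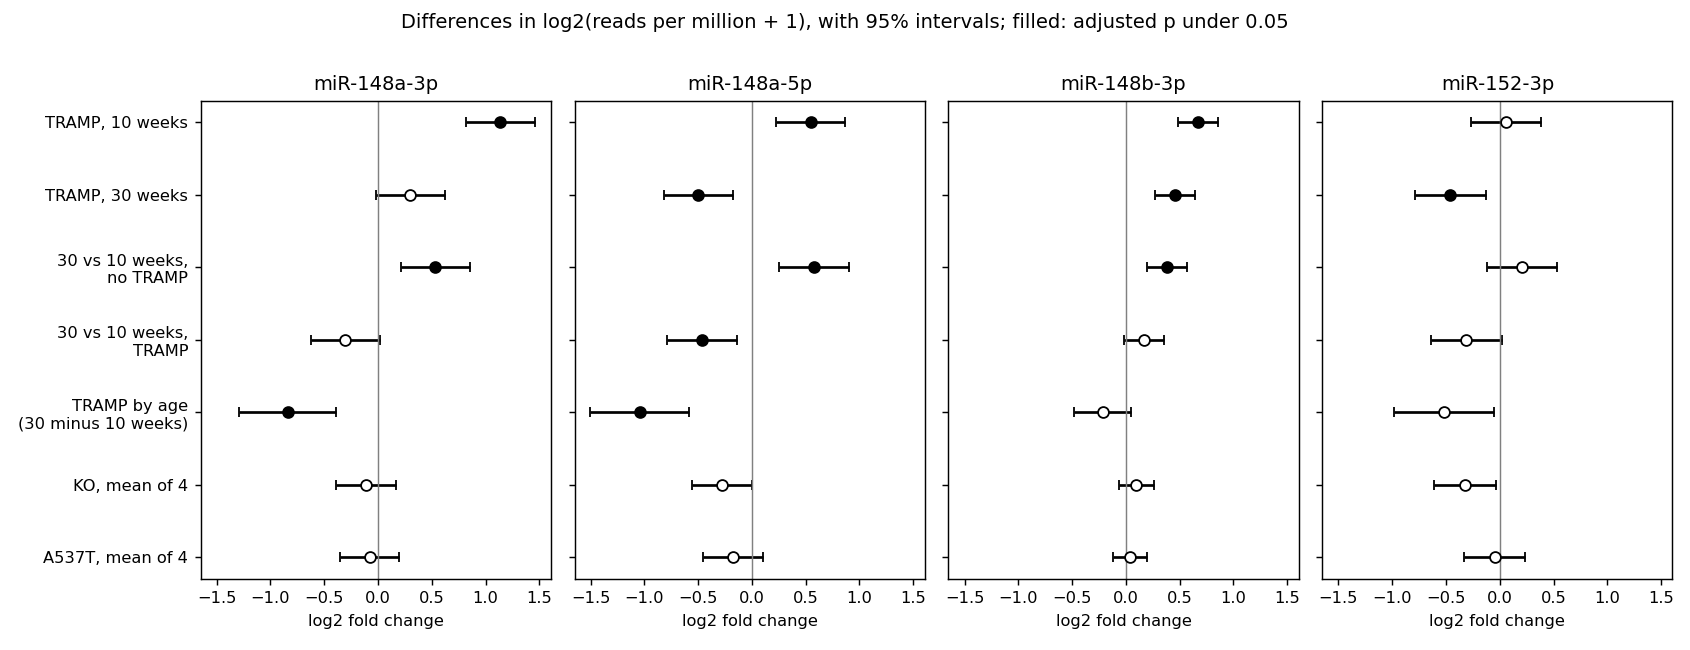
Log2 fold changes (x axis) of the 4 members in 7 comparisons (y axis) with 95% intervals, filled where the adjusted p is under 0.05. miR-148a-3p stands at 1.14 for TRAMP at 10 weeks and at 0.30 for TRAMP at 30 weeks, miR-148a-5p changes from 0.55 to -0.50, and no interval of the KO or A537T comparisons belongs to a called difference.

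In single groups, the age effects of the members seldom passed. miR-148b-3p was called in A537T (0.47 ± 0.16, adjusted p = 0.0358, limma), with backgrounds of 13.1% in WT, 15.4% in KO and 18.1% in A537T. That call was lost without library 25, 27, 35 or 36 (0.32, adjusted p = 0.235 without library 36). It was lost too in DESeq2 (0.0851), in edgeR (0.0643), with median-of-ratios scaling (0.0636), with no filter (0.0961), in a fit of these libraries alone (0.184), with totals free of miR-148a-3p (0.0524) or of skeletal muscle miRNAs (0.202), and relative to miR-143-3p (0.802) or the epithelial miRNAs (0.012, adjusted p = 0.967). With TRAMP, miR-148a-5p was called in KO-TRAMP (-0.88 ± 0.27, adjusted p = 0.0264), with backgrounds of 8.72% in WT-TRAMP, 18.1% in KO-TRAMP and 8.72% in A537T-TRAMP. This call was lost without library 7, 17 or 18 (-0.51, adjusted p = 0.277 without library 17), in a fit of these libraries alone (0.263) and relative to miR-143-3p (0.557). miR-148a-3p in KO-TRAMP differed by -0.69 ± 0.27 between the ages (adjusted p = 0.0753), and by -1.04 without library 16 (0.0032).

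The mutant comparisons set KO and A537T against WT within each age and background. In the 8 comparisons none of the 32 tests of the members passed in limma, 2 had an unadjusted p under 0.05, and edgeR and DESeq2 called 0 as well. Both of those 2 were in KO-TRAMP against WT-TRAMP at 30 weeks, miR-148a-3p at -0.61 ± 0.27 (adjusted p = 0.187) and miR-148a-5p at -0.65 ± 0.27 (adjusted p = 0.164). In that comparison 20.5% of all miRNAs had an unadjusted limma p under 0.05, and over the 8 comparisons 5.03% to 24.8% did. The log2 fold changes of miR-148a-3p ran from -0.61 to 0.19 over the 8 comparisons and those of miR-148a-5p from -0.65 to -0.06. Those of miR-148b-3p ran from -0.02 to 0.24 and those of miR-152-3p from -0.49 to 0.22. Among all miRNAs tested, the KO comparisons called 5.70% (10 weeks) and 1.01% (30 weeks), those of KO-TRAMP 0% (10 weeks) and 4.03% (30 weeks), and each of the 4 comparisons with A537T or A537T-TRAMP 0%. These counts moved with the scaling, since A537T at 30 weeks called 20 miRNAs with TMM and 13 with median-of-ratios scaling, all higher, and KO at 30 weeks 29 with the latter in place of 3.

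As the mean of the 4 settings, KO differed from WT by -0.11 ± 0.13 in miR-148a-3p (95% interval -0.39 to 0.16), -0.28 ± 0.14 in miR-148a-5p, 0.10 ± 0.08 in miR-148b-3p and -0.32 ± 0.14 in miR-152-3p. None of the 4 was called by limma, edgeR or DESeq2, and 2 (miR-148a-5p and miR-152-3p) had an unadjusted limma p under 0.05. Without library 16 both of these were called, at -0.37 and -0.40 (adjusted p = 0.0452 each). The A537T differences were -0.08 ± 0.13 (95% interval -0.36 to 0.20), -0.18 ± 0.14, 0.04 ± 0.08 and -0.05 ± 0.14 in the same order, with 0 calls by each of the 3 tools and 0 at an unadjusted p under 0.05. Among all miRNAs 0% were called in either mean, while 21.5% (KO) and 9.73% (A537T) had an unadjusted limma p under 0.05.

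The KO-TRAMP group of 30 weeks was the least even. In its libraries 16, 17 and 18 miR-148a-3p stood at 260669, 103939 and 152485 RPM, miR-143-3p at 53618, 330631 and 233706 RPM and the 7 epithelial miRNAs together at 81672, 61807 and 68065 RPM. Thus the 2 libraries low in miR-148a-3p were those high in miR-143-3p, and the part of that in the KO-TRAMP values was not tested. Without library 16, the KO-TRAMP against WT-TRAMP differences of miR-148a-3p (-0.96, adjusted p = 0.00912), miR-148a-5p (-1.02, 0.00653) and miR-152-3p (-0.80, 0.045) passed the threshold, and without library 17 they were -0.29, -0.29 and -0.21. This comparison therefore rests on single libraries.

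Markers of the tissue's other cells moved with TRAMP as well as with age. In bulk tissue, fewer cells of a type and less of an RNA per cell cannot be told apart. With TRAMP at 10 weeks, 6 of 7 epithelial miRNAs (the miR-200 family, miR-205-5p, miR-203-3p) were higher. The other 1, miR-205-5p, was lower (log2 fold change -0.72, limma adjusted p = 0.001). The sum of the 7 ran from 39125 to 67041 RPM without TRAMP and from 60671 to 93345 RPM with it. All 5 smooth muscle and stroma miRNAs were lower, with sums of 72108 to 401839 RPM without and 75944 to 227532 RPM with TRAMP. Of the 6 skeletal muscle miRNAs all 5 that were tested were lower, with sums of 7343 to 306121 RPM without and 2177 to 30906 RPM with TRAMP. The 5 white blood cell miRNAs split into 2 higher and 3 lower (236 to 462 RPM and 275 to 731 RPM). The 2 higher were both arms of miR-142a, and the 3 lower were miR-150-5p, miR-155-5p and miR-223-3p. Both red cell miRNAs tested of 4 were lower (1056 to 1931 RPM and 138 to 617 RPM). Of the neuroendocrine list 1 of 3 tested was higher, and the 1 liver miRNA tested was not called, while miR-122-5p, the defining liver miRNA, stayed at 0.818 to 45.2 RPM. At 30 weeks with TRAMP 3 of the 7 epithelial miRNAs were higher and 2 lower, 1 of 5 smooth muscle miRNAs was lower, and 3 of 5 white blood cell miRNAs were higher. Among the listed markers only miR-208b-3p (21 libraries) and miR-499-5p (1 library) were at 0 anywhere. The part of these cell types in the members' differences was not tested beyond the scalings that follow.

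Relative to the summed epithelial list, miR-148a-3p was still higher with TRAMP at 10 weeks, by 0.57 (limma adjusted p = 0.00034). At 30 weeks it was higher by 0.40 (0.0134), against 0.30 in RPM, which was not called (0.12). The largest members of the list were miR-200b-3p, miR-200a-3p and miR-200c-3p, with means of 27910, 22470 and 13860 RPM. With TRAMP at 30 weeks these differed in RPM by -0.29 (0.131), 0.47 (0.002) and -0.56 (0.000743). The median of miR-148a-3p was 2.15 reads for each read of the list at 10 weeks without TRAMP and 3.45 with it, and 2.22 and 3.19 at 30 weeks. On that scale the 10-week TRAMP difference was 0.11 for miR-148b-3p (0.419), -0.02 for miR-148a-5p (0.857) and -0.51 for miR-152-3p (4.55e-05). The rise of miR-148b-3p and miR-148a-5p with TRAMP at 10 weeks was thus found in RPM and not relative to these epithelial miRNAs. The age effect without TRAMP, 0.53 for miR-148a-3p in RPM, was -0.02 relative to the list (0.863). It was 0.38 (0.0792) once the skeletal muscle miRNAs were left out of the totals, whose sums were 7343 to 306121 RPM at 10 weeks and 3554 to 8197 RPM at 30 weeks without TRAMP. The interaction with age, -0.84 in RPM, was -0.17 relative to the list (0.409).

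**Figure D3:**
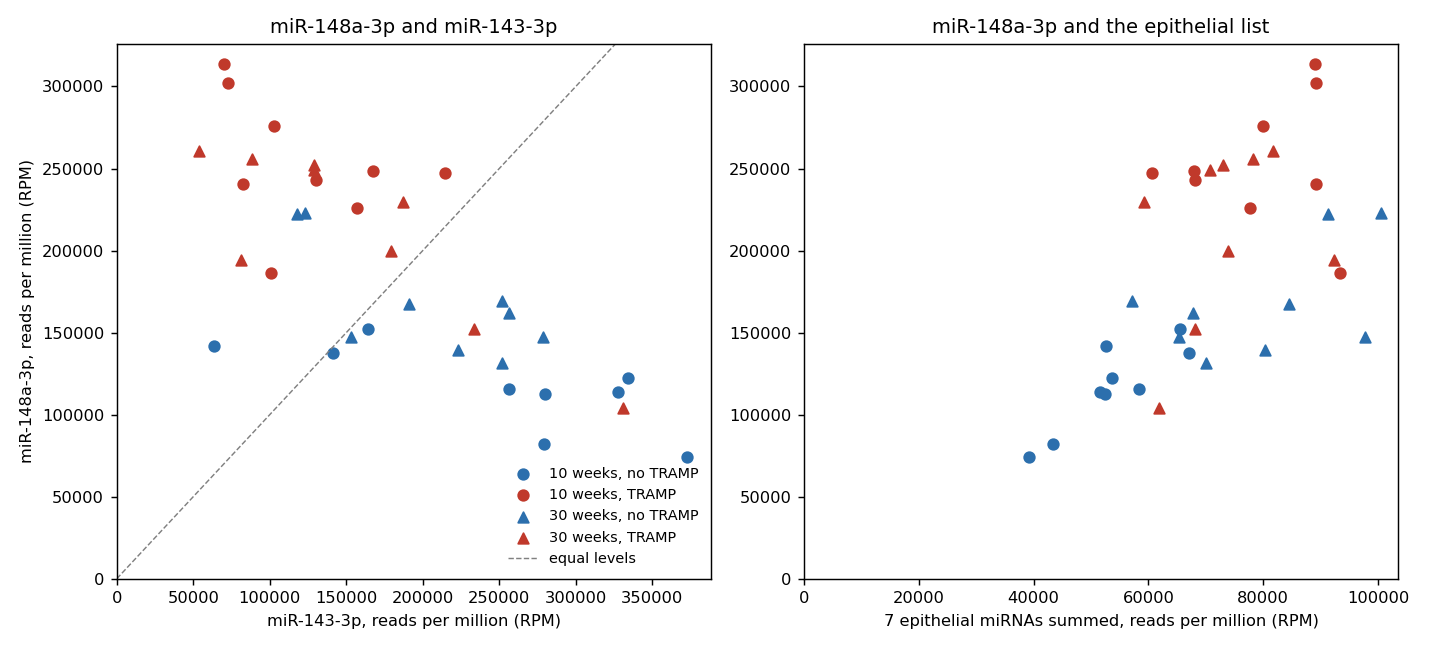
miR-148a-3p (y axis, RPM) against miR-143-3p (left) and against 7 epithelial miRNAs summed (right) in 36 libraries, red with TRAMP, circles 10 weeks and triangles 30 weeks. On the left, libraries above the dashed line have more miR-148a-3p than miR-143-3p, as do 16 of 18 TRAMP libraries. On the right, the TRAMP libraries of 10 weeks have a median of 3.45 reads of miR-148a-3p per epithelial read, against 2.15 without TRAMP.

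The ratio of the 2 arms of 1 precursor does not depend on how a library is scaled. For miR-148a there were 173 to 342 reads of the 3p arm per read of the 5p arm (median 241) at 10 weeks without TRAMP and 283 to 471 (median 375) with it. At 30 weeks the ratio was 154 to 299 (median 253) without TRAMP and 316 to 463 (median 418) with it, so that all 9 TRAMP libraries of that age lay above the 9 without. The ratio was 1.51-fold higher with TRAMP at 10 weeks (p = 0.00075, adjusted over 12 tests 0.00225) and 1.74-fold higher at 30 weeks (p = 0.00025, the smallest these permutations can give, adjusted 0.00225), in two-sided exact permutation tests within lines, and it was higher in all 3 lines at both ages. The other 4 comparisons of the ratio (age without and with TRAMP, KO, A537T) gave adjusted p of 0.751, 0.137, 0.112 and 0.552 in the same permutation test.

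Such shifts were common. In limma over the 74 precursors with both arms at a mean of 10 RPM or more, 52.7% of the ratios were called with TRAMP at 10 weeks and 55.4% at 30 weeks. That of miR-148a was higher by 0.59 ± 0.11 (adjusted p = 0.000109) and 0.80 ± 0.11 (2.62e-06) on the log2 scale. The ratio of miR-152 was higher by 0.28 ± 0.09 (0.00812) and 0.56 ± 0.09 (5.69e-06), and that of miR-148b by 0.65 ± 0.14 at 10 weeks (0.000641) and 0.07 ± 0.14 at 30 weeks (0.726).

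The 3 members with the seed CAGUGCA can be summed as 1 pool. It held 80000 to 162871 RPM (median 124289) at 10 weeks without TRAMP and 195064 to 323159 RPM (median 252408) with it. miR-148a-3p made up 95.5% ± 1.62 of that pool (SD, n = 36), never under 91.7%. With TRAMP its share was 96.8% against 93.7% at 10 weeks (two-sided exact permutation test, p = 0.00025, the smallest possible, adjusted 0.0015) and 96.6% against 94.8% at 30 weeks (p = 0.00075, adjusted 0.00225). Each of the 9 TRAMP libraries of 10 weeks, at 95.5% to 97.9%, lay above each of those without, at 92.4% to 95.5%. In the same test the share did not pass for age, KO or A537T, with adjusted p of 0.112 to 0.75. The share is made of the same reads as the levels above. There, miR-148a-3p differed by 1.14 and miR-152-3p by 0.06 on the log2 scale with TRAMP at 10 weeks. The higher share restates that difference and is not a separate result, and no other seed family was set beside it.

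**Figure D4:**
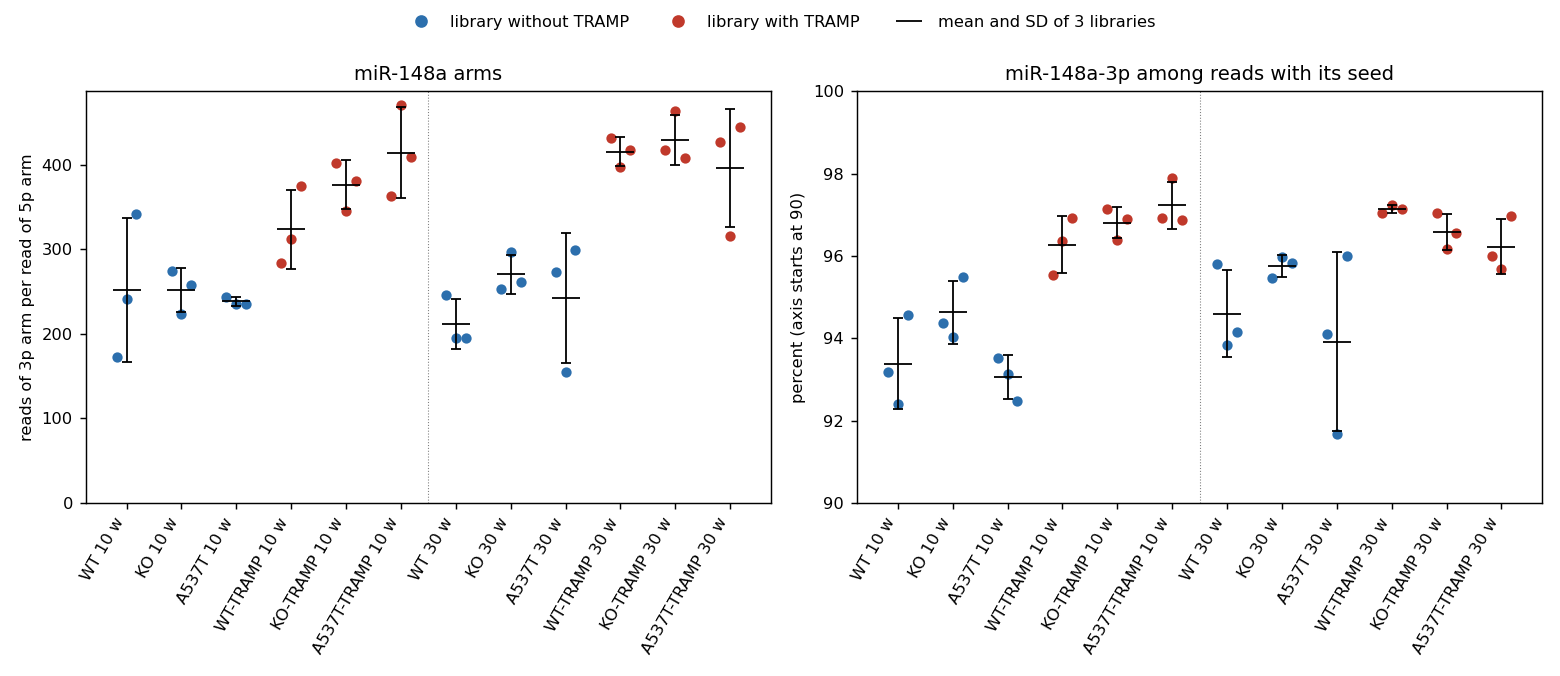
Left, reads of miR-148a-3p (y axis) per read of miR-148a-5p. Right, miR-148a-3p as percent of all reads with its seed (axis from 90 to 100), both by library (points) with the mean and SD of 3 libraries for the 12 groups on the x axis. TRAMP libraries run from 283 to 471 at 10 weeks and from 316 to 463 at 30 weeks on the left, and libraries without TRAMP from 154 to 342.

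Across the 36 libraries the members did not follow one pattern. The Pearson correlation of log2(RPM + 1) was 0.76 between miR-148a-3p and miR-148b-3p, 0.62 between the arms miR-148a-3p and miR-148a-5p, 0.26 between miR-148a-3p and miR-152-3p, and -0.18 between miR-148b-3p and miR-152-3p. The miRNAs most like miR-148a-3p were miR-200a-5p (0.86), miR-423-3p (0.80) and miR-200a-3p (0.78), and its correlation with miR-143-3p was -0.73. For miR-148a-5p they were miR-200c-3p (0.86), miR-204-5p (0.84) and let-7f-5p (0.82). For miR-148b-3p they were miR-106b-3p (0.85), miR-25-5p (0.84) and miR-25-3p (0.83), 3 products of the miR-106b/25 cluster. For miR-152-3p they were the other arm miR-152-5p (0.88), miR-200b-5p (0.81) and miR-148a-5p (0.78). These values are a description, since the libraries share group, depth and the same total to which each is scaled.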

How the data were processed

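Small RNA was sequenced from mouse ventral and lateral prostate lobes. Per the study's methods, the authors merged reads, aligned and counted them with mirDeep2 on GRCm38 and miRBase, and summed miRNAs of identical sequence. The deposit held 8 tables of 6 libraries (unit: signal, a normalised count). The methods name DESeq2 for the tests and do not describe how these tables were scaled. Tables of the authors' own fold changes were not used. The deposited signal values were whole multiples of 1 read in 100% of cases (tolerance 0.01), and the control libraries held identical reads in each table. The columns name no group, so groups were inferred. A column in both the KO and the Mut table of an age and background was taken as their shared WT control. Any other column was given to the line of its table, with Mut read as A537T, the only other mutant line in the labels. All 36 columns were matched in this way, with 0 left over.

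Each column was divided by its sum to give RPM, which removes any single factor by which a whole column was scaled. limma 3.58.1 (R 4.3.3) with a variance trend was fitted to log2(RPM + 1) of 298 miRNAs with a mean of at least 10 RPM, in 12 groups, with Benjamini-Hochberg adjustment per comparison and a threshold of 0.05. The miRNAs named were the 4 members, their other arms, the 5 most abundant miRNAs and, per member, the 3 most correlated. Arm ratios and seed shares were tested by exact permutation (Python). Labels were permuted within each line for TRAMP and age, and between mutant and WT within each age and background for KO and A537T. Alternatives included edgeR 4.0.16 and DESeq2 1.42.0 on recovered reads, other scalings and filters, and leaving out each library. The scripts were tested on simulated data. Members and lists were chosen with earlier results of these data known.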

Additional observations from a re-analysis of the deposited data

Results flagged for a closer look

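The TRAMP difference itself differed between 10 and 30 weeks for both arms of Mir148a, by the interaction test of the fit over all 36 libraries. The interaction was -0.84 ± 0.22 (SE, limma adjusted p = 0.00455) for miR-148a-3p and -1.04 ± 0.22 (adjusted p = 0.000858) for miR-148a-5p, and that of miR-152-5p, at -0.80 ± 0.28 (adjusted p = 0.027), differed as well, although its call was lost without library 17 (-0.67, adjusted p = 0.0503), with no filter (0.072), with totals free of skeletal muscle miRNAs (-0.65, 0.0748), relative to the epithelial list (-0.13, 0.54) and relative to miR-143-3p (0.356). For miR-148a-3p it was -0.17 relative to the epithelial list (adjusted p = 0.409), and the summed epithelial list itself ran from 39125 to 67041 RPM at 10 weeks and from 57057 to 100450 RPM at 30 weeks without TRAMP. For miR-148a-5p it ran from -1.17 to -0.92 over the libraries left out in turn and from -1.47 to -0.37 over the other settings, the lowest relative to miR-143-3p, where it was not called (adjusted p = 0.2), as was also so for miR-148a-3p (-1.27, 0.278), and the highest relative to the epithelial list.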

How the results depend on the processing

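No paired analysis was possible because the columns carry no replicate number. The 4 members were recomputed in 7 comparisons. For the members and ratios, 342 of 380 values under other settings and 858 of 900 with 1 library left out kept their direction and side of the threshold. For the ratios and seed shares with 1 library left out, that side was set by the unadjusted permutation p. For single-line calls, other arms and counts of miRNAs called, 276 of 348 values under other settings were kept. The counts were judged by the size of their change alone. Of the other values, 40 weakened, 6 gained a call, 6 reversed and 20 counts moved. With 1 library left out, 360 of 384 were kept. The TRAMP rise of miR-148a-3p at 10 weeks, as the mean of 3 lines, passed under every setting run, from 1.04 to 1.22 with 1 library left out. The cause of the changes below was not tested. The epithelial and miR-143-3p scalings were chosen after seeing the data. In the 10-week TRAMP comparison they moved the median of all miRNAs by -0.55 and 0.94 on the log2 scale, against 0.13 for TMM, 0.20 for median-of-ratios, -0.15 for totals without skeletal muscle miRNAs and 0.24 for totals without miR-148a-3p. Of the miRNAs called there, 13.5% were higher on the epithelial and 88.9% on the miR-143-3p scale, and 47.2% with TMM.

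Relative to the epithelial list, values for miR-148a-3p were 0.013 for A537T, -0.024 for age without TRAMP, -0.17 for the interaction and 0.40 for TRAMP at 30 weeks. Those for miR-148a-5p were 0.021 for age without TRAMP and -0.022 for TRAMP at 10 weeks. For miR-148b-3p they were -0.18 for age without TRAMP, 0.46 for the interaction (adjusted p = 0.0196), 0.11 for TRAMP at 10 weeks and -0.017 for TRAMP in WT alone. For miR-152-3p they were 0.047 for A537T, -0.35 for age without TRAMP (adjusted p = 0.00354), 0.15 for the interaction and -0.51 for TRAMP at 10 weeks. In that last comparison miR-148b-5p was at -0.51 (limma adjusted p = 0.0034) and miR-152-5p at -0.79 (1.3e-05). The interaction of miR-148b-5p was 1.00 on this scale (limma adjusted p = 0.00037).

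Relative to miR-143-3p, miR-148a-3p was at 0.70 for age without TRAMP and -1.27 for the interaction, neither called. miR-148a-5p was at -0.73 and 0.74 for age with and without TRAMP, -1.47 for the interaction and 0.024 for TRAMP at 30 weeks, none of the 4 called. miR-148b-3p was at -0.38 for A537T, -0.40 for KO, and -0.10 and 0.54 for age with and without TRAMP. miR-152-3p was at 0.062 for TRAMP at 30 weeks, miR-148b-5p at -0.032 for the interaction and miR-152-5p at 0.72 for TRAMP at 10 weeks.

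With totals free of skeletal muscle miRNAs, age without TRAMP was 0.38 for miR-148a-3p and 0.22 for miR-148b-3p, miR-148b-3p was at -0.012 for A537T, and TRAMP at 10 weeks was -0.10 for miR-152-3p and -0.12 for miR-148b-5p. The interaction of miR-148b-5p was 0.51 with these totals (limma adjusted p = 0.00916). With totals free of miR-148a-3p, TRAMP at 30 weeks was -0.42 for miR-148a-5p and -0.38 for miR-152-3p, neither called, the interaction of miR-152-3p -0.69 (called) and TRAMP at 10 weeks 0.019 for miR-152-5p. With no filter the age difference of miR-148a-5p with TRAMP was -0.47 (adjusted p = 0.0608). Median-of-ratios scaling gave miR-148b-3p -0.54 for the interaction (called) and 0.33 for TRAMP at 30 weeks (not called). The interaction of miR-152-3p, not called in RPM, was called at -0.85 with that scaling, -0.70 in DESeq2, -0.74 with TMM and -0.59 in edgeR.

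With 1 library left out in turn, the log2 arm ratio ranged from 0.13 to 0.21 for age with TRAMP. For age without TRAMP it ranged from -0.13 to 0.054, and for KO from 0.11 to 0.23. Its permutation p in these runs was not adjusted for the number of tests. That p was under 0.05 without library 5 or 14 (age with TRAMP) and without library 3, 19 or 30 (KO). The seed share ranged from -0.50 to 0.040 points for A537T and from 0.72 to 1.45 for age without TRAMP. For KO it ranged from 0.47 to 0.75. Its unadjusted permutation p was under 0.05 without library 20, 26, 30 or 33 (age without TRAMP). The same held for KO without library 3, 17, 19 or 30. The ranges were -0.42 to -0.20 for miR-148a-3p and age with TRAMP, 0.18 to 0.40 for its TRAMP difference at 30 weeks, -0.59 to -0.34 for miR-148a-5p and age with TRAMP, and -0.37 to -0.19 for its KO difference. For miR-152-3p they were -0.12 to 0.023 (A537T), -0.41 to -0.22 (age with TRAMP), -0.40 to -0.25 (KO), -0.62 to -0.42 (interaction), -0.019 to 0.15 (TRAMP at 10 weeks) and -0.56 to -0.36 (TRAMP at 30 weeks). miR-148b-5p ranged from -0.048 to 0.10 for TRAMP at 10 weeks. Mutant calls among the members ranged from 0 to 3, the 3 without library 16.

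Over all miRNAs, the number called was 212 for TRAMP at 10 weeks (116 to 405 over the settings), 138 at 30 weeks (83 to 273), 111 for age without TRAMP (41 to 202), 87 with it (18 to 152) and 124 for the interaction (8 to 208). For KO it was 0, but 24 in DESeq2, 41 without library 16 and 24 without library 23, and for A537T 0 and 3 in DESeq2. Depth limits the values of library 35 most, with 655455 reads.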
